A study of Mus musculus with 34 samples.

Results

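The genes described here are 45 imprinted mouse genes that lie outside the Dlk1-Dio3 cluster. They were chosen by name as known imprinted genes and sorted into 21 clusters, 10 of which hold 1 of the genes, and by the parental allele that is normally expressed. Of the 45, 24 are normally expressed from the paternal allele, 12 from the maternal allele, and 9 from an allele that depends on the tissue or the transcript isoform. All 45 were among the 48709 genes of the Control and Mta123KO files, and 41 were among the 22018 genes of the single-mutant files, where the non-coding genes H19, Airn, Kcnq1ot1 and Peg13 were not analysed here.

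RNA-seq read counts were compared in mouse embryonic stem (ES) cells that lacked the MTA proteins, scaffold subunits of the Nucleosome Remodelling and Deacetylation (NuRD) complex, a chromatin remodeller that also removes acetyl groups from histones. Control and Mta123KO ES cells, of 2 lines each and with 2 libraries per line, were given the label 2iL (2 inhibitors and LIF, the medium that holds ES cells in the naive state) or the label of 48 h in N2B27 medium without the inhibitors and LIF, which makes 4 groups of 4 libraries. In the single-mutant set, Mta1_del/del, Mta2 KO and Mta3_del/del cells and their parents (Mta1 flox/flox, wild type and Mta3 flox/flox) had 3 libraries each, all in 2i and LIF. The question in every comparison was what expression of these genes became when MTA proteins were removed together or singly. Control cells carried 1 floxed and 1 deleted Mta1 allele, wild-type Mta2 and Mta3 flox/flox, so that they too were short of an Mta1 copy. Mta123KO cells carried deletions of both alleles of Mta1, Mta2 and Mta3. They were made from Mta1-deleted, Mta3 flox/flox cells in which Mta2 was targeted with CRISPR guides before Cre removed Mta3. The deleted Mta1 and Mta3 alleles of the single mutants came from Cre recombination of the floxed parents, and the Mta2 KO cells were a primary line from mutant mice compared with wild-type cells. The strain in the labels is 129/Ola. No hybrid cross was used, so the counts do not tell the parental alleles apart, and a gene called paternal or maternal below carries only its textbook assignment.

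Some features of the libraries bear on every value. Total counts were 37855790 to 57602285 in the 16 Control and Mta123KO libraries and 13105820 to 40613585 in the 18 libraries of the single-mutant set. Mta2 stood at 111 to 129 CPM (read counts scaled to a common library size) in Control and 4.72 to 9.0 CPM in Mta123KO libraries labelled 2iL, and at 185 to 202 and 6.53 to 10.4 CPM in those labelled 48h. Mta3 stood at 57.3 to 74.9 and 14.0 to 23.8 CPM labelled 2iL, and Mta1, of which Control lines lack a copy, at 34.9 to 48.6 and 19.5 to 30.0 CPM. The culture labels went against the markers of the states they name. The summed level of 7 naive pluripotency genes was 148 to 232 CPM in Control libraries labelled 2iL and 3615 to 3975 CPM in those labelled 48h, and the sum of 4 formative genes was 752 to 1292 and 73.4 to 84.6 CPM. The labels were followed as given, and the cultures are called "labelled 2iL" and "labelled 48h" throughout. Were the labels exchanged, the comparisons of Mta123KO with Control would exchange places and each change between cultures would turn its direction.

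Imprinted genes are expressed mainly from the copy inherited from 1 parent. The choice is set by differentially methylated regions that acquire DNA methylation in the sperm or the egg and keep it through early development, and in several clusters a long non-coding RNA or an insulator carries the choice to the neighbouring genes. Many imprinted genes act on growth and on the placenta: paternally expressed genes such as Igf2 tend to promote growth and maternally expressed genes such as Igf2r, Cdkn1c and Phlda2 tend to restrain it. Imprints are known to be unstable in cultured ES cells, and single ES cell lines can differ in the expression of imprinted genes.

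Sequence upstream of 4 genes and of 1 divergent pair that stand out below is shown so that the regions concerned can be seen. Each run ends at the base before a RefSeq transcript start (assembly GRCm38.p6) and is written in the direction of transcription. The windows are Plagl1 at chr10:13090582-13090831 (+), Mest at chr6:30737800-30738049 (+), Nnat at chr2:157559828-157560077 (+) and Grb10 at chr11:12037421-12037670 (-). The last run is the stretch between the divergent starts of Peg3 and Usp29 at chr7:6730420-6730582 (+). Capitals mark TGCCGC or its reverse complement GCGGCA, the core of the motif bound in methylated form by ZFP57, a zinc finger protein that keeps imprints methylated.
Plagl1: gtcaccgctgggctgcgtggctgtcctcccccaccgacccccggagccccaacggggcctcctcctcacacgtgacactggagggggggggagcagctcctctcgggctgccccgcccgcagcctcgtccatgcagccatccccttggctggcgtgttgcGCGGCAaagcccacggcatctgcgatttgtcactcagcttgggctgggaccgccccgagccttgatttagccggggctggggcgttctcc
Mest: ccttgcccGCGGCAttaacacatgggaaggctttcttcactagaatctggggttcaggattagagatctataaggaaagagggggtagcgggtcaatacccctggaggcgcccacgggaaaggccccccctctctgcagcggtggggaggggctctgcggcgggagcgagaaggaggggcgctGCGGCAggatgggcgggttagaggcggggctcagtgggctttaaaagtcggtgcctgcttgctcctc
Nnat: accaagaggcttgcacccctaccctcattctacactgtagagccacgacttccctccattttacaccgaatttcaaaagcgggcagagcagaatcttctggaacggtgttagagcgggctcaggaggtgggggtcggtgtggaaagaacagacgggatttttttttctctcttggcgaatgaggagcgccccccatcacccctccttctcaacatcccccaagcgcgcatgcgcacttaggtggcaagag
Grb10: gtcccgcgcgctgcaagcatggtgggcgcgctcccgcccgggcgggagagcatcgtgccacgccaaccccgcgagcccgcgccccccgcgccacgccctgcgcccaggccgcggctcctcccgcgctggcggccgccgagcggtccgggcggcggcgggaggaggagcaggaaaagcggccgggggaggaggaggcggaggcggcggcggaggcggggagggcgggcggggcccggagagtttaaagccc
Peg3-Usp29: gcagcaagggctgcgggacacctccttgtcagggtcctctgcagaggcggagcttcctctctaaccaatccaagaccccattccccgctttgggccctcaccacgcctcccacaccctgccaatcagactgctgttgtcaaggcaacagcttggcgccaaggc
Mest holds 2 matches, Plagl1 1, and the others none in these letters. Where a gene had several windows, the one with the most matches was shown, so the matches shown do not stand for all its windows. Another Mest window, at chr6:30733256-30733505, held 0. Over the 36 genes for which a window was taken, 9 of 54 windows (16.7%) held a match on either strand, against 8.68% of the 32851 windows of all genes. The matches lay in 8 genes (Slc22a2, Zim1, Mest, Copg2, Plagl1, Mcts2, Nap1l5 and Zdbf2). Windows of 1 gene can overlap: those of Mest from 30737800 and from 30737803 hold the same matches and were both counted. The median number of CpG dinucleotides was 11.5 in the windows of the imprinted genes and 6 in all windows. A match of letters is a description of the sequence only.

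With all MTA proteins removed, more of the imprinted genes were higher than lower in both cultures. Labelled 2iL, 41 of the 45 genes had enough counts to be tested, and 20 rose and 6 fell by edgeR's quasi-likelihood test at a Benjamini-Hochberg adjusted p under 0.05. That is 48.8% and 14.6% of those tested, beside 27.1% of all 21651 genes that rose and 24.2% that fell. Labelled 48h, 21 rose and 2 fell of 41 tested, 51.2% and 4.88%, beside 26.6% and 23.4% of all 21079 genes. Scaled on the spike-in counts, 18 rose and 3 fell labelled 48h, beside 16.3% and 20.6% of all genes. The median log2 fold change was 0.48 and 0.63 for the imprinted genes and 0.01 for all genes in either culture. Every Mta123KO library lay above every Control library for 18 of the 41 genes and below for 6 labelled 2iL, beside 25.0% of all genes each way, and for 20 and 1 labelled 48h, beside 24.6% and 23.8%. All genes of a culture were measured in the same 8 libraries, so their changes are not independent of each other.

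Libraries of 1 line were closer to each other than libraries of different lines, so p-values over the 4 libraries of a group may be too small. They measure only the spread between these libraries, part of which may be technical. When the libraries of a line were summed and the lines were compared, 2 against 2, 10 genes rose and 2 fell labelled 2iL, beside 9.21% and 6.15% of all genes, and 12 rose and 1 fell labelled 48h, beside 10.7% and 6.35%. The 7 genes that rose in both cultures with the lines as samples were H19, Igf2r, Peg10, Kcnq1ot1, Nnat, H13 and Zdbf2, and Grb10 was the 1 that fell in both. With the libraries as samples, 16 genes rose in both cultures, the same 7 with Airn, Blcap, Gnas, Igf2, Mest, Nap1l5, Sgce, Slc38a4 and Zrsr1, and Grb10 again fell in both.

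By allele, 14 of 23 tested paternally expressed genes rose and 4 fell labelled 2iL, with a median log2 fold change of 0.84, and 12 of 22 rose and 1 fell labelled 48h, with a median of 0.80. That is 60.9% and 17.4% labelled 2iL, beside 27.1% and 24.2% of all genes. Labelled 48h it is 54.5% and 4.55%, beside 26.6% and 23.4%. Of the maternally expressed genes, 3 of 9 rose and none fell labelled 2iL (median 0.28), and 5 of 10 rose and none fell labelled 48h (median 0.83). With the lines as samples, 7 paternally expressed genes rose and 1 fell labelled 2iL and 7 rose and 0 fell labelled 48h, and 2 and 3 maternally expressed genes rose. Over all genes 9.21% rose and 6.15% fell labelled 2iL in that fit, and 10.7% and 6.35% labelled 48h. By DESeq2 too, 0 of the maternally expressed genes fell in either culture, and 0 had a lower level at an unadjusted p under 0.05 by edgeR. This held for the 2 Mta123KO lines together. Against Control labelled 2iL, 7 of 9 rose and 0 fell in line 1, beside 33.8% and 31.7% of all genes. In line 2, 3 rose and 4 fell, beside 29.9% and 28.0%. Labelled 48h, 8 of 10 rose and 0 fell in line 1, and 4 rose and 1 fell in line 2, beside 33.0% and 29.1%, and 28.6% and 25.4%. Some genes of each class thus rose, including genes of 1 cluster that are expressed from opposite alleles. Labelled 2iL this was no more than near the share of all genes for the maternally expressed class. Of the genes with a tissue- or isoform-dependent allele, 3 of 9 rose and 2 fell labelled 2iL, and 4 of 9 rose and 1 fell labelled 48h. These are 33.3% and 22.2% labelled 2iL, near the shares of all genes, and 44.4% and 11.1% labelled 48h. In bulk RNA, fewer cells of a type and less RNA per cell cannot be told apart.

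**Figure D1:**
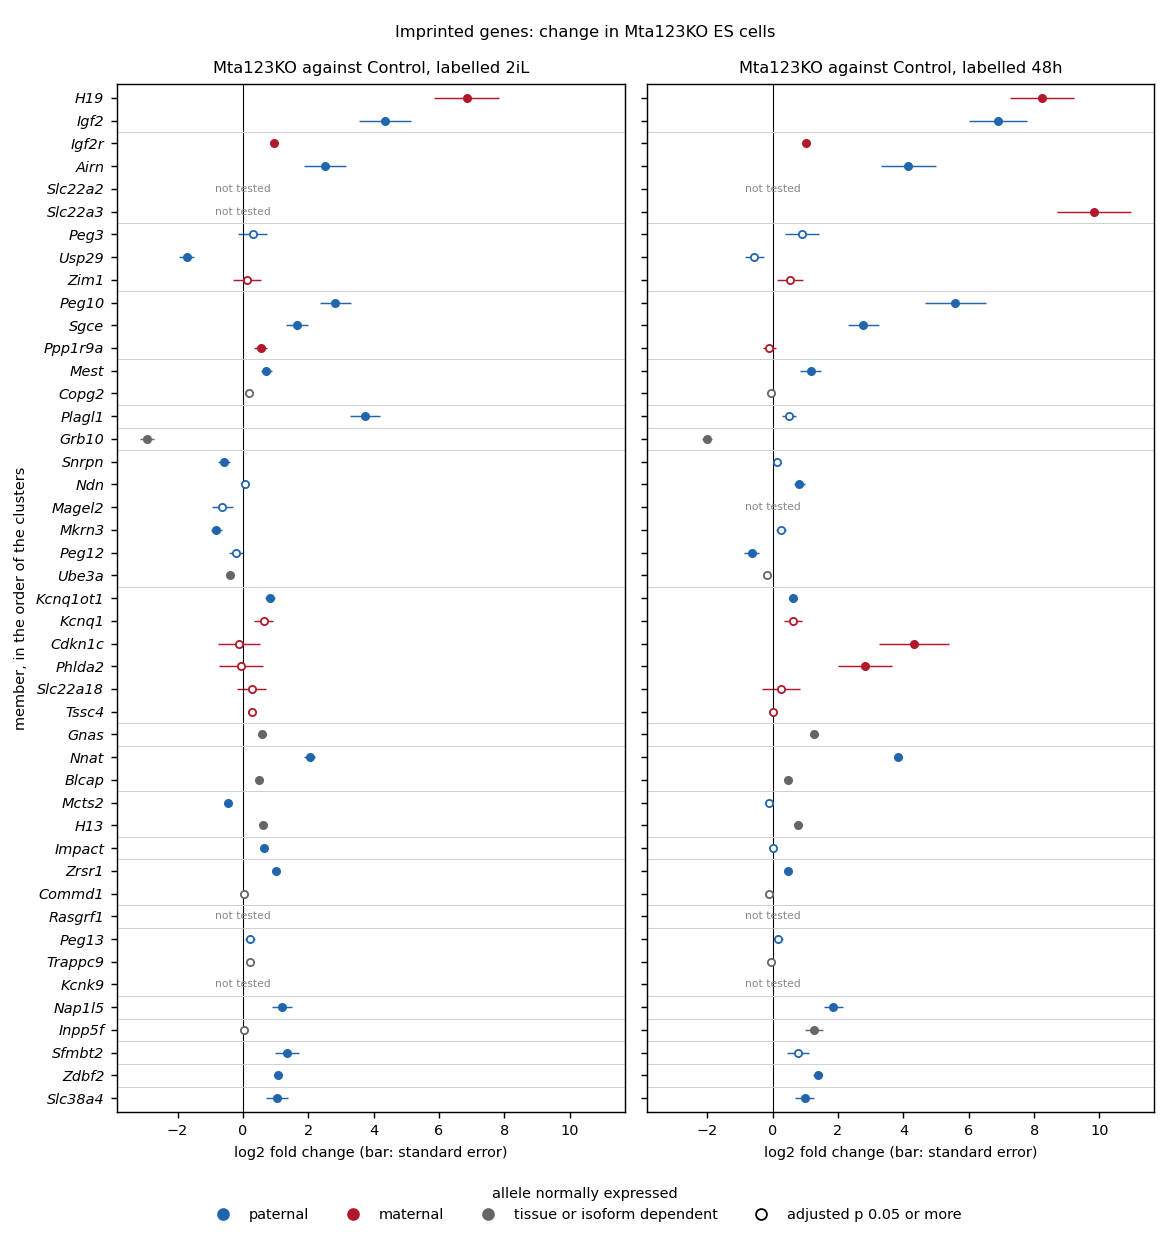
Log2 fold change of Mta123KO against Control with its standard error for the imprinted genes, by cluster, in libraries labelled 2iL and labelled 48h (4 against 4 libraries each). Filled points passed the adjusted p threshold. H19, Igf2, Peg10 and Nnat lie far to the right in both cultures and Grb10 lies at -2.93 and -2.01.

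Both genes of the Igf2-H19 cluster rose in both cultures. H19, a maternally expressed non-coding RNA (ENSMUSG00000000031, chromosome 7, 142575529 to 142578143, minus strand, GRCm38), stood labelled 2iL at 14.8 and 25.4 CPM in Control line 1 and 43.0 and 46.9 CPM in Control line 2, and at 6648 and 6776 CPM in Mta123KO line 1 and 540.3 and 848 CPM in Mta123KO line 2. Labelled 48h the values were 3.98, 10.9, 4.98 and 6.11 CPM in Control and 3068, 3823, 373 and 476 CPM in Mta123KO, in the same order of lines. Every Mta123KO library lay above every Control library, and within the knockouts line 1 lay far above line 2. H19 rose by a log2 fold change of 6.85 (SE 1.0, adjusted p = 5.1e-04, and 0.038 with the lines as samples) and of 8.24 (SE 0.97, adjusted p = 1.5e-04 and 0.022).

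Igf2, the paternally expressed insulin-like growth factor (chromosome 7, 142650766 to 142666816, minus strand), stood labelled 2iL at 2.38, 2.12, 4.14 and 5.26 CPM in Control and at 116, 129, 15.7 and 17.0 CPM in Mta123KO. Without the inhibitors and LIF by label, it stood at 0.441, 0.736, 0.599 and 0.606 CPM in Control and at 128, 117, 15.3 and 17.7 CPM in Mta123KO. The groups did not overlap, and line 1 again had the higher values. The log2 fold changes were 4.34 (SE 0.79, adjusted p = 0.0017) and 6.90 (SE 0.88, adjusted p = 2.4e-04). With the lines as samples, Igf2 passed labelled 48h (adjusted p = 0.026) but not labelled 2iL (adjusted p = 0.059). H19 and Igf2, which share enhancers and are normally expressed from opposite alleles, were therefore both higher in each of the Mta123KO lines.

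In the Igf2r cluster, Igf2r itself, the maternally expressed receptor that takes IGF2 to the lysosome (chromosome 17, 12682406 to 12769664, minus strand), rose in both cultures. Labelled 2iL it stood at 134, 158, 112 and 124 CPM in Control and at 279, 281, 218 and 233 CPM in Mta123KO, a log2 fold change of 0.96 (SE 0.12, adjusted p = 2.5e-04, and 0.033 with the lines as samples). Labelled 48h it stood at 156, 184, 130.1 and 157 CPM against 328, 321, 307 and 311 CPM, with a change of 1.02 (SE 0.10, adjusted p = 4.8e-05 and 0.016). No library of one genotype fell in the range of the other, and Igf2r was the highest maternally expressed gene per kilobase of exon in Control libraries, at 14.2 and 16.8 CPM per kb.

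Airn, the paternally expressed RNA that runs antisense across Igf2r and silences the genes on its own copy, was low in Control, at 0.083 to 0.31 CPM labelled 2iL and 0.072 to 0.163 CPM labelled 48h. In Mta123KO it stood at 1.25, 1.77, 0.364 and 0.323 CPM labelled 2iL and at 3.10, 4.44, 0.425 and 0.584 CPM labelled 48h. The log2 fold changes of 2.51 (SE 0.65, adjusted p = 0.011) and 4.15 (SE 0.85, adjusted p = 0.0033) did not pass with the lines as samples (adjusted p = 0.11 and 0.060). Airn overlaps Igf2r on the other strand and the strand setting of the counting is not given in the sources used here, so reads of the 2 genes may be mixed.

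Slc22a3, a maternally expressed organic cation transporter of the same cluster, was almost without reads in Control. Labelled 48h it had 1 count over the 4 Control libraries and 1379 counts over the 4 Mta123KO libraries, a ratio of 1314 with a 95% counting interval of 236 to 51938 (exact binomial, counting error only). Its levels in Mta123KO were 9.89 and 15.4 CPM in line 1 and 2.48 and 2.54 CPM in line 2, and it rose at an adjusted p of 1.3e-04 (0.021 with the lines as samples). Labelled 2iL it had 2 and 20 counts, a ratio of 10.7 (2.60 to 94.5), and was not tested. Slc22a2, another transporter of the cluster, stood at 0 CPM in Control and at no more than 0.068 CPM in Mta123KO.

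Peg10 and Sgce, a pair of paternally expressed neighbours on chromosome 6 read from a shared differentially methylated region, rose in both cultures. Peg10, a retrotransposon-derived gene needed for the placenta (4747306 to 4760517, plus strand), stood labelled 2iL at 105, 137, 241 and 332 CPM in Control and at 1914, 2223, 775 and 819 CPM in Mta123KO. In the other culture it stood at 15.1, 18.1, 62.1 and 70.7 CPM in Control and at 3414, 3571, 423 and 512 CPM in Mta123KO. The groups were apart in both cultures, with line 1 the lower of the Control lines and the higher of the Mta123KO lines. Peg10 changed by a log2 fold of 2.83 (SE 0.47, adjusted p = 0.0011, and 0.049 with the lines as samples) and 5.59 (SE 0.94, adjusted p = 0.0011 and 0.048).

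Sgce, which encodes epsilon-sarcoglycan, stood labelled 2iL at 2.80 to 7.21 CPM in Control, at 21.4 CPM in both libraries of Mta123KO line 1 and at 11.5 and 11.7 CPM in line 2. Labelled 48h the Control range was 1.22 to 3.66 CPM, and the Mta123KO libraries stood at 24.9, 25.0, 9.38 and 8.62 CPM. The changes were 1.65 (SE 0.32, adjusted p = 0.0026) and 2.77 (SE 0.48, adjusted p = 0.0013), and the lines as samples gave adjusted p = 0.062 and 0.051. Ppp1r9a, which encodes the actin-binding neurabin and is maternally expressed in some tissues, stood labelled 2iL at 39.7 to 52.9 CPM in Control, 47.0 and 50.9 CPM in Mta123KO line 1 and 83.6 and 84.0 CPM in line 2. Its change labelled 2iL was 0.54 (SE 0.20, adjusted p = 0.049, and 0.25 with the lines as samples), and labelled 48h it was -0.10 (SE 0.21, adjusted p = 0.71).

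Nnat, the paternally expressed neuronatin gene (chromosome 2, 157560078 to 157562522, plus strand), which lies in an intron of Blcap, rose in both cultures. It stood labelled 2iL at 9.67, 8.54, 13.2 and 11.9 CPM in Control and at 48.5, 52.0, 35.2 and 40.0 CPM in Mta123KO. Labelled 48h the Control values were 2.52, 2.58, 3.16 and 2.61 CPM and the Mta123KO values 42.3, 41.5, 36.0 and 34.4 CPM. The ranges were far apart and both Mta123KO lines were high, at 2.24 and 1.83 log2 units above Control labelled 2iL and 3.96 and 3.70 labelled 48h. Nnat rose by 2.04 (SE 0.17, adjusted p = 2.6e-05, and 0.020 with the lines as samples) and 3.84 (SE 0.12, adjusted p = 5.4e-07 and 0.011). Blcap, the host gene, rose by 0.48 (SE 0.12, adjusted p = 0.0084, and 0.16 with the lines as samples) and 0.45 (SE 0.10, adjusted p = 0.0039, and 0.10 with the lines as samples), with 9.37 to 10.6 CPM in Control and 11.4 to 15.6 CPM in Mta123KO labelled 2iL.

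Plagl1, a paternally expressed zinc finger transcription factor also called Zac1 (chromosome 10, 13060504 to 13131694, plus strand), differed in the 2 cultures. Labelled 2iL it stood at 1.28, 1.35, 1.93 and 2.71 CPM in Control and at 33.3, 37.2, 13.4 and 11.8 CPM in Mta123KO, a log2 fold change of 3.74 (SE 0.45, adjusted p = 1.9e-04, and 0.029 with the lines as samples). Labelled 48h Control libraries already stood at 103, 89.8, 123 and 139 CPM and Mta123KO libraries at 203, 201, 111 and 122 CPM. Line 2 then lay within the Control range, and the change of 0.50 (SE 0.22) did not pass (adjusted p = 0.090). In Control, Plagl1 was 5.99 log2 units higher labelled 48h than labelled 2iL (SE 0.23, adjusted p = 6.7e-09).

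Grb10, an adaptor protein that restrains signalling from the insulin and IGF receptors and whose expressed allele depends on the tissue (chromosome 11, 11930508 to 12038683, minus strand), fell in both cultures. It stood labelled 2iL at 268, 291, 201 and 227 CPM in Control and at 24.6, 23.1, 40.8 and 39.2 CPM in Mta123KO. Labelled 48h the Control values were 125, 126, 104 and 124 CPM and the Mta123KO values 21.8, 29.3, 32.8 and 34.9 CPM. All Mta123KO libraries lay far below all Control libraries, and labelled 48h Grb10 was the 1 imprinted gene for which every Mta123KO library lay below every Control library. The changes were -2.93 (SE 0.22, adjusted p = 1.6e-05, and 0.019 with the lines as samples) and -2.01 (SE 0.14, adjusted p = 1.0e-05 and 0.012). Grb10 was also the highest per kilobase of exon among the genes with a dependent allele in Control labelled 2iL, at 27.1 CPM per kb.

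**Figure D2:**
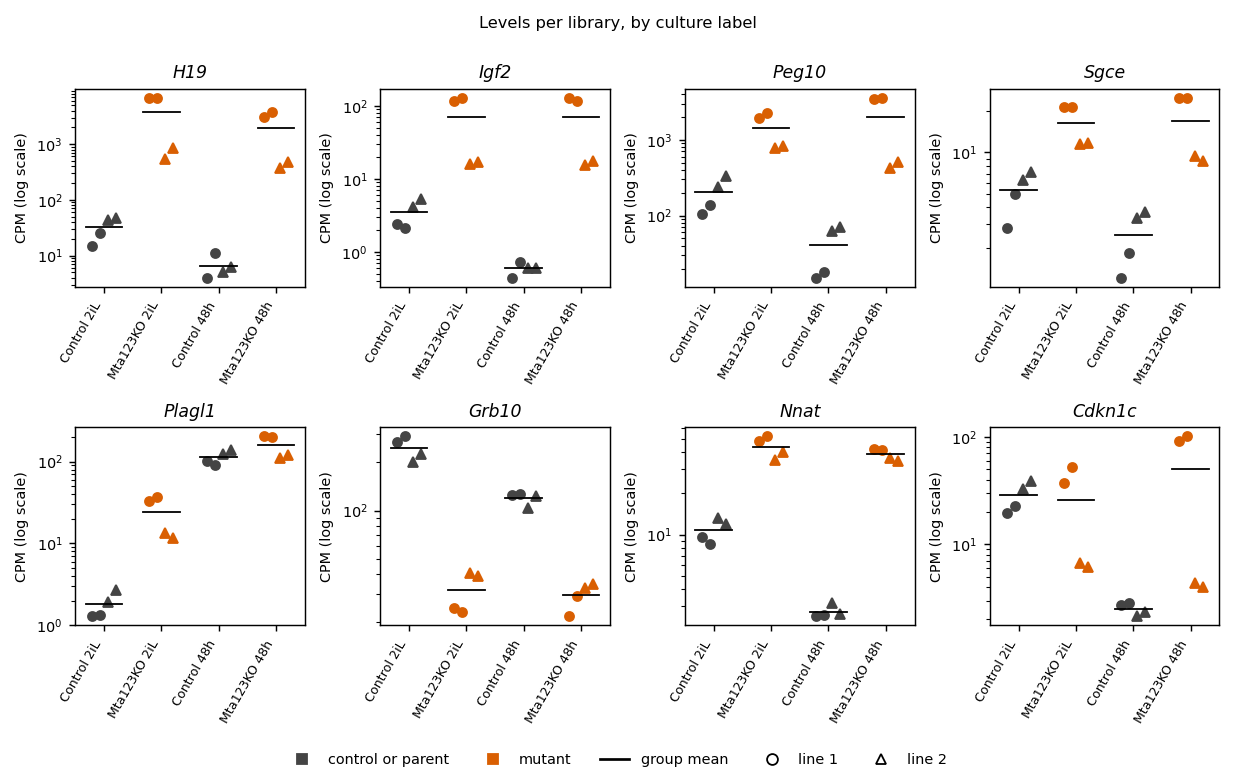
Level in CPM, on a log axis, of H19, Igf2, Peg10, Sgce, Plagl1, Grb10, Nnat and Cdkn1c in each library of the Control and Mta123KO groups of either culture label, with circles for line 1 and triangles for line 2. The Mta123KO points of H19 and Igf2 fall in separate pairs by line, those of Nnat lie close together, and the Cdkn1c points of Mta123KO line 2 lie below all Control points labelled 2iL. Bars are group means.

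The Kcnq1ot1 cluster on chromosome 7 held genes in which the Mta123KO lines parted. Kcnq1ot1, the paternally expressed RNA that silences the cluster on its own copy, stood labelled 2iL at 79.6 to 91.5 CPM in Control and at 113, 162, 192 and 132 CPM in Mta123KO, and rose by 0.84 (SE 0.15, adjusted p = 0.0015, and 0.029 with the lines as samples). Labelled 48h it stood at 81.7 to 108 CPM and at 143, 118, 153 and 153 CPM, and rose by 0.63 (SE 0.11, adjusted p = 0.0013 and 0.040). It lies within Kcnq1 on the opposite strand. The potassium channel gene Kcnq1 itself stood at 0.395 to 1.27 CPM in the Control and Mta123KO groups and did not pass (adjusted p = 0.10 and 0.083).

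Cdkn1c, the maternally expressed cell cycle inhibitor p57, stood labelled 2iL at 19.6, 22.9, 33.0 and 38.6 CPM in Control, at 37.4 and 52.5 CPM in Mta123KO line 1 and at 6.68 and 6.20 CPM in line 2. Labelled 48h Control fell to 2.13 to 2.84 CPM, while the Mta123KO libraries stood at 92.1 and 101 CPM in line 1 and at 4.36 and 3.98 CPM in line 2. Line 2 was thus below all Control libraries labelled 2iL and slightly above them labelled 48h. Over both lines the changes were -0.13 (SE 0.64, adjusted p = 0.88) and 4.33 (SE 1.07, adjusted p = 0.0083, and 0.10 with the lines as samples).

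Phlda2, a maternally expressed gene that restrains placental growth, also parted by line. It stood labelled 2iL at 10.9 to 12.8 CPM in Control, 18.1 and 22.8 CPM in Mta123KO line 1 and 2.31 and 2.17 CPM in line 2. Labelled 48h it stood at 2.59 to 4.85 CPM in Control, 41.6 and 50.6 CPM in line 1 and 3.87 and 4.27 CPM in line 2, which lay within the Control range, and the change of 2.83 (SE 0.82, adjusted p = 0.018) did not pass with the lines as samples (adjusted p = 0.14). Slc22a18, a maternally expressed transporter, stood labelled 2iL at 0.787 to 1.23 CPM in Control, above that in line 1 (1.93 and 1.79 CPM) and below it in line 2 (0.607 and 0.431 CPM). Tssc4 stood at 13.3 to 20.9 CPM in the Control and Mta123KO groups and did not pass in either culture.

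The Peg3 cluster, also on chromosome 7, behaved in the same divided way for its leading gene. Peg3, a paternally expressed zinc finger protein (6703892 to 6730431, minus strand), stood labelled 2iL at 499, 442, 749.9 and 715 CPM in Control, at 1107 and 1163 CPM in Mta123KO line 1 and at 313 and 326 CPM in line 2. Labelled 48h it stood at 183, 184, 292 and 320.3 CPM in Control, 739 and 736 CPM in line 1 and 149 and 182 CPM in line 2. In both cultures line 1 lay above and line 2 below every Control library, and the joint changes of 0.29 (SE 0.45) and 0.89 (SE 0.52) did not pass (adjusted p = 0.61 and 0.18).

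Usp29, a paternally expressed gene read divergently from the region between it and Peg3, fell labelled 2iL. It stood at 14.8, 11.7, 19.7 and 18.5 CPM in Control and at 6.12, 5.60, 3.74 and 3.79 CPM in Mta123KO, a change of -1.73 (SE 0.22, adjusted p = 2.4e-04, and 0.033 with the lines as samples). Peg3 in Mta123KO line 1 thus lay above Control where Usp29 lay below it. Labelled 48h the groups overlapped for Usp29, at 4.97 to 8.81 CPM and 2.86 to 6.05 CPM (adjusted p = 0.12). Zim1, a maternally expressed zinc finger gene, stood at 0.247 to 1.08 CPM and did not pass.

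Mest, a paternally expressed gene of the hydrolase fold family, stood labelled 2iL at 145, 128, 195 and 191 CPM in Control and at 301, 305, 250.3 and 215 CPM in Mta123KO. In the other culture it was at 24.4, 20.9, 65.1 and 53.0 CPM in Control and at 98.0, 99.2, 87.5 and 77.8 CPM in Mta123KO. The groups did not overlap, and Mest rose by 0.72 (SE 0.16, adjusted p = 0.0054) and 1.16 (SE 0.33, adjusted p = 0.017). Neither passed with the lines as samples (adjusted p = 0.099 and 0.14). Its overlapping neighbour Copg2, a coat protein of vesicles, stood at 64.8 to 129 CPM in the Control and Mta123KO groups and did not pass. Copg2 was the highest of the genes with a dependent allele per kilobase of exon in Control labelled 48h, at 13.8 CPM per kb.

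In the Snrpn-Ube3a cluster of chromosome 7, Snrpn, Mkrn3 and Ube3a fell labelled 2iL and Peg12 fell labelled 48h. Snrpn, a paternally expressed splicing protein and the highest paternal gene per kilobase of exon in Control labelled 2iL (46.1 CPM per kb), stood at 116, 95.4, 96.6 and 89.5 CPM in Control and at 53.1, 46.8, 86 and 78.1 CPM in Mta123KO. It fell by 0.57 on the log2 scale (SE 0.19, adjusted p = 0.031, and 0.18 with the lines as samples). Mkrn3, a paternally expressed makorin, fell from 4.54 to 6.07 CPM to 2.30 to 3.45 CPM (change -0.81, SE 0.18, adjusted p = 0.0043, and 0.093 with the lines as samples). Ube3a, the ubiquitin ligase that is maternally expressed in neurons, stood at 178 to 197 CPM in Control and 119 to 166 CPM in Mta123KO (change -0.39, SE 0.12, adjusted p = 0.022, and 0.18 with the lines as samples).

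Labelled 48h none of these 3 passed, and the ranges overlapped for Snrpn, at 27.0 to 36.6 CPM and 30.8 to 37.6 CPM. Ndn, the paternally expressed necdin gene, rose there from 2.50 to 3.52 CPM to 4.39 to 5.33 CPM (change 0.82, SE 0.16, adjusted p = 0.0022, and 0.076 with the lines as samples). Peg12 fell there from 4.58 to 9.41 CPM to 3.87 to 5.17 CPM (change -0.64, SE 0.23, adjusted p = 0.043, and 0.21 with the lines as samples), a call that was lost without replicate 1_1, 1_2 or 2_2, the library numbers of each line (changes of -0.54, -0.54 and -0.72). Magel2 stood at 0.026 to 1.12 CPM over the Control and Mta123KO groups, did not pass labelled 2iL (adjusted p = 0.13) and was not tested labelled 48h.

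Gnas, the gene of the stimulatory G protein alpha subunit, whose transcripts come from different alleles, rose in both cultures. It stood labelled 48h at 79.6 to 81.8 CPM in Control and at 196, 202, 179.8 and 185 CPM in Mta123KO, a change of 1.25 (SE 0.06, adjusted p = 1.8e-06, and 0.012 with the lines as samples). Labelled 2iL it stood at 114 to 123 CPM and at 206, 192, 149.6 and 143 CPM, with a change of 0.57 (SE 0.12, adjusted p = 0.0034, and 0.093 with the lines as samples). The groups did not overlap in either culture, and labelled 2iL line 1 was the higher of the Mta123KO lines.

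Among genes that are alone or with 1 partner in their cluster, Zdbf2, a paternally expressed zinc finger gene on chromosome 1 (63273265 to 63314576, plus strand), rose in both cultures. It stood labelled 2iL at 45, 46.0, 53.9 and 58.2 CPM in Control and at 99.0, 109.7, 111 and 97.0 CPM in Mta123KO (change 1.05, SE 0.10, adjusted p = 4.6e-05, and 0.023 with the lines as samples). The values labelled 48h were 34.4 to 35.6 CPM in Control and 116, 95.7, 73.9 and 76.8 CPM in Mta123KO (change 1.39, SE 0.14, adjusted p = 5.9e-05 and 0.020). Neither culture showed an overlap, and labelled 2iL line 1 and line 2 stood the same distance above Control, 1.05 log2 units each.

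Nap1l5, a paternally expressed nucleosome assembly family member, had its higher values in Mta123KO line 2. It stood labelled 2iL at 1.35 to 1.95 CPM in Control, 2.02 and 2.31 CPM in line 1 and 4.86 and 4.76 CPM in line 2 (change 1.19, SE 0.32, adjusted p = 0.011, and 0.14 with the lines as samples). Labelled 48h Control stood at 0.263 to 0.511 CPM and Mta123KO at 1.27, 1.01, 1.83 and 1.90 CPM (change 1.86, SE 0.30, adjusted p = 8.3e-04, and 0.036 with the lines as samples).

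Sfmbt2, a paternally expressed Polycomb family protein needed in trophoblast, and Slc38a4, a paternally expressed amino acid transporter, were high in line 1. Sfmbt2 stood labelled 2iL at 15.4 to 35.3 CPM in Control, 83.7 and 96.8 CPM in line 1 and 37.5 and 38.0 CPM in line 2 (change 1.35, SE 0.36, adjusted p = 0.013, and 0.12 with the lines as samples). Labelled 48h line 2 stood at 30.1 and 38.8 CPM beside 35.2 to 39.3 CPM in Control, with line 1 at 89.1 and 94.0 CPM (adjusted p = 0.082). Slc38a4 stood labelled 2iL at 182 to 213 CPM in Control, 548 and 602 CPM in line 1 and 206 and 231 CPM in line 2 (change 1.04, SE 0.33, adjusted p = 0.027, and 0.18 with the lines as samples), and the lowest Mta123KO library lay within the Control range. Labelled 48h it rose by 0.98 (SE 0.28, adjusted p = 0.018, and 0.14 with the lines as samples), and it was the highest paternally expressed gene per kilobase of exon in Control there, at 50.7 CPM per kb.

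Inpp5f, an inositol phosphatase, stood at 21.1 to 26.6 CPM in the 8 libraries labelled 2iL and did not pass there (adjusted p = 0.85). It stood labelled 48h at 5.62, 4.99, 10.5 and 10.8 CPM in Control and at 23.1, 22.6, 15.8 and 15.2 CPM in Mta123KO (change 1.27, SE 0.28, adjusted p = 0.0045, and 0.087 with the lines as samples). Zrsr1, a paternally expressed splicing factor gene inside an intron of Commd1, rose from 5.50 to 7.05 CPM to 10.4 to 14.2 CPM labelled 2iL (change 1.01, SE 0.13, adjusted p = 2.8e-04) and by 0.45 labelled 48h (SE 0.12, adjusted p = 0.010), with adjusted p = 0.039 and 0.14 with the lines as samples. Impact, a paternally expressed regulator of translation, rose labelled 2iL from 102 to 120.3 CPM to 158 to 188 CPM (change 0.65, SE 0.08, adjusted p = 1.6e-04) and differed by 0.00 labelled 48h (SE 0.11, adjusted p = 0.99).

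H13, which encodes signal peptide peptidase, rose from 18.4 to 22.6 CPM to 27.9 to 34.5 CPM labelled 2iL and from 16.5 to 19.4 CPM to 28.9 to 34.0 CPM labelled 48h (changes 0.62 and 0.79, SE 0.09 and 0.08). Mcts2, a paternally expressed retrogene in an intron of H13, fell labelled 2iL from 18.6 to 22.7 CPM to 13.6 to 16 CPM (change -0.46, SE 0.09, adjusted p = 0.0028, and 0.088 with the lines as samples) and did not pass labelled 48h (adjusted p = 0.46). Commd1 stood at 24.2 to 32.5 CPM, Peg13 at 1.52 to 2.61 CPM and Trappc9 at 14.9 to 27.6 CPM in the Control and Mta123KO groups. None of these 3 passed in either culture. Rasgrf1 stood at no more than 0.347 CPM and Kcnk9 at no more than 0.045 CPM in any Control or Mta123KO library. Neither had enough counts for the test of Mta123KO against Control over libraries. Rasgrf1 had 2 counts in Control and 38 in Mta123KO labelled 48h, a ratio of 18.1 (4.68 to 155), and it rose there with the lines as samples (adjusted p = 0.038).

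The Mta123KO lines differed from each other in many of these genes. Compared directly, 26 of 42 tested genes (61.9%) were higher in line 1 and 4 (Ppp1r9a, Grb10, Snrpn and Nap1l5) were lower labelled 2iL, beside 21.0% and 19.4% of all genes. Labelled 48h, 21 of 43 (48.8%) were higher and 2 (Grb10 and Commd1) were lower, beside 18.4% and 14.5% of all genes. Each line is 1 derivation with 2 libraries, so this tests these lines and not a class of lines. H19 was 3.27 log2 units higher in line 1 labelled 2iL (adjusted p = 4.9e-08), Phlda2 3.18, Igf2 2.9 and Cdkn1c 2.80.

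Taken against the 4 Control libraries without a test, the median log2 change labelled 2iL was 0.69 in line 1 and 0.16 in line 2, and labelled 48h it was 1.04 and 0.30. The change was larger in size in line 1 for 27 of 42 genes labelled 2iL and 31 of 43 labelled 48h. More of all genes passed against Control in line 1 as well. Labelled 2iL, 33.8% of all genes rose and 31.7% fell in line 1, beside 29.9% and 28.0% in line 2. Labelled 48h these shares were 33.0% and 29.1% in line 1 and 28.6% and 25.4% in line 2. Both lines were higher than Control for 25 imprinted genes and both lower for 7 labelled 2iL, with opposite signs for 10. Labelled 48h both were higher for 27, both lower for 5 and opposite for 11. These counts of size and sign were not made over all genes. Every line 1 library lay above and every line 2 library below all Control libraries for Peg3, Zim1, Phlda2 and Slc22a18 labelled 2iL, beside 2.05% of all genes, and for Peg3 and Slc22a18 labelled 48h, beside 1.64% of all genes. The reverse layout held for 0 of the imprinted genes in either culture, beside 1.96% and 1.75% of all genes. Without line 1 of Mta123KO, 17 of 41 genes rose and 10 fell labelled 2iL, beside 26.8% and 25.1% of all genes, and 18 of 41 rose and 5 fell labelled 48h, beside 25.1% and 22.5%.

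The Control lines differed too. Labelled 2iL, 12 of 42 genes (28.6%) were lower in Control line 1 than in line 2 and 1, Grb10, was higher, beside 2.84% and 1.75% of all genes. Labelled 48h, 8 of 43 (18.6%) were lower and 1, Peg12, was higher, beside 1.66% and 1.99%. Peg3, Usp29, Peg10, Sgce, Mest and Plagl1 were lower in Control line 1 in both cultures. Peg10 was 1.25 and 2.01 log2 units lower, which is smaller than its change in Mta123KO in either culture. The lines of Control and of Mta123KO carry the same numbers in the labels, but nothing in the labels ties them to a common parent.

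**Figure D3:**
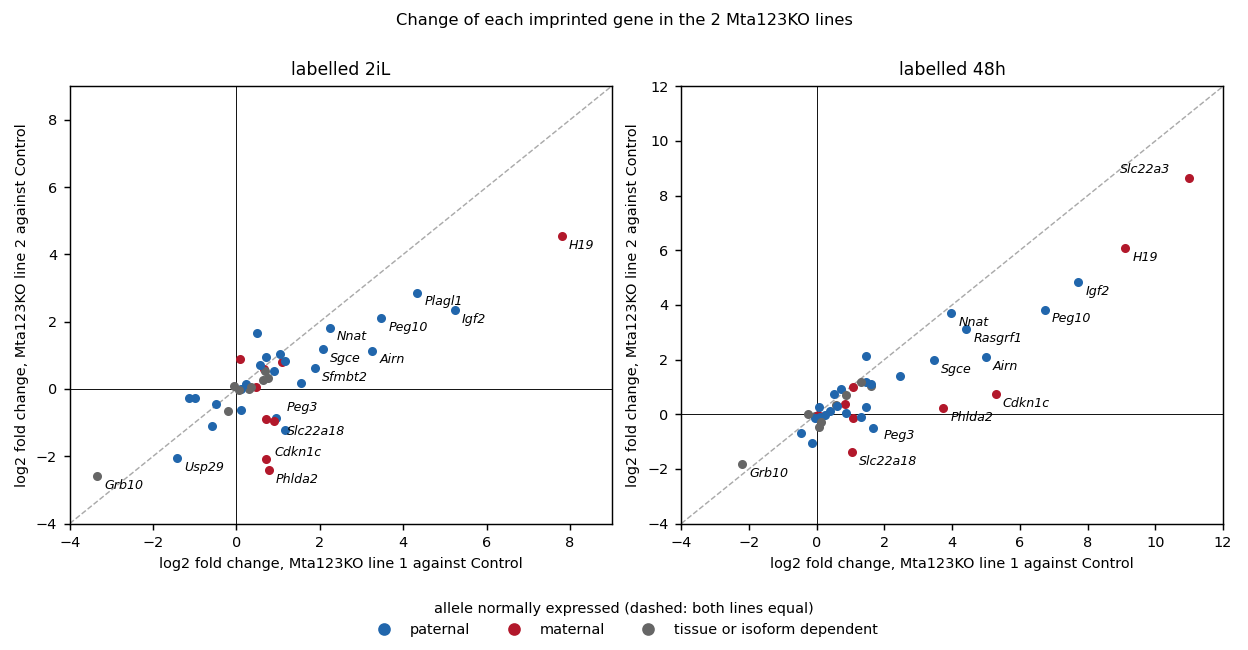
Log2 fold change against the 4 Control libraries in Mta123KO line 1 (horizontal) and Mta123KO line 2 (vertical) for each imprinted gene, in libraries labelled 2iL and labelled 48h, with the line of equal change. Most points lie on the side of the larger change in line 1, and Cdkn1c, Phlda2, Slc22a18 and Peg3 lie in the quadrant of opposite signs labelled 2iL. The positions of Slc22a3 and Rasgrf1 labelled 48h depend on the prior count, since their Control counts were 1 and 2.

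Between cultures, most of the imprinted genes were lower labelled 48h than labelled 2iL in Control. There 9 of 40 tested genes rose (22.5%) and 23 fell (57.5%), beside 29.5% and 29.0% of all genes. Cdkn1c fell by 3.49, Igf2 by 2.54, H19 by 2.32, Peg10 by 2.29, Mest by 2.00 and Nnat by 1.98 on the log2 scale, while Plagl1 rose by 5.99 and Slc22a18 by 1.48. In Mta123KO, 4 of 43 rose (9.30%) and 8 fell (18.6%), beside 12.4% and 10.0% of all genes. Plagl1 rose by 2.73 and Slc22a3 by 6.04, and Mest fell by 1.57, Nap1l5 by 1.21 and Snrpn by 0.95. The replicate numbers were also taken as a block, as if they paired libraries of 1 line. With it 12 rose and 24 fell in Control, beside 32.1% and 31.8% of all genes, and 8 rose and 12 fell in Mta123KO, beside 22.7% and 19.8%. With the lines as samples, 6 rose and 20 fell in Control, beside 22.5% and 22.7% of all genes. In Mta123KO 0 of all 24445 genes passed in that fit, and the lowest adjusted p of the imprinted genes was 0.14. Leaving out 1 replicate number at a time gave 2 that rose and 3 to 5 that fell in Mta123KO. Over all genes 6.82% to 8.35% rose and 4.84% to 6.07% fell in these fits. Scaled on the spike-in counts, 62.1% of the calls over all genes between the Control cultures were upward, beside 50.4% with the scaling used. Of the imprinted genes 9 then rose and 18 fell, beside 28.2% and 17.3% of all genes.

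By the interaction term, the log2 fold change of Mta123KO against Control was higher labelled 48h for 10 of 43 genes and lower for 3. This stood beside 12.5% and 10.6% of all genes. Among the 10, Grb10, Usp29, Mkrn3 and Snrpn had fallen labelled 2iL, and labelled 48h their fall was smaller or did not pass. Cdkn1c differed by 4.47 (SE 1.30, adjusted p = 0.021), Nnat by 1.80 (SE 0.21, adjusted p = 1.9e-05), Inpp5f by 1.26 (SE 0.31, adjusted p = 0.0074) and Plagl1 by -3.24 (SE 0.51, adjusted p = 3.3e-04). Nnat was the 1 gene that passed with the lines as samples (adjusted p = 0.035). Scaled on the spike-in counts, 41.1% of the interaction calls over all genes were upward, beside 54.3% with the scaling used. Among the imprinted genes, 3 calls were then upward and 2 downward, beside 6.02% and 8.62% of all genes. In absolute levels, the Mta123KO libraries of Nnat stood at 35.2 to 52.0 CPM labelled 2iL and 34.4 to 42.3 CPM labelled 48h, while Control went from 8.54 to 13.2 CPM to 2.52 to 3.16 CPM.

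Cells that had lost a single MTA protein were all grown in 2i and LIF and were normalised as a set of their own, so levels are not compared with those above. In Mta2 KO cells, 11 of 39 tested genes rose and 11 fell, 28.2% each, beside 23.5% and 24.3% of all genes. Peg10 stood at 30.5, 25.4 and 32.3 CPM in Mta2 KO and at 279.8, 285 and 243 CPM in wild type, with no overlap, and fell by 3.20 (SE 0.10, adjusted p = 1.7e-08). Igf2 fell by 1.71 (SE 0.18, adjusted p = 6.3e-05), from 8.49, 7.95 and 7.78 CPM to 2.55, 1.72 and 3.19 CPM. Both genes moved in the opposite direction to Mta123KO, a difference that was not tested.

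Sgce fell in Mta2 KO from 10.04, 11.1 and 11.3 CPM to 4.57, 3.19 and 3.76 CPM (change -1.50, SE 0.14, adjusted p = 1.9e-05). Ppp1r9a fell from 27.2, 33.3 and 26.6 CPM to 10.03, 9.85 and 12.8 CPM (change -1.43, SE 0.12, adjusted p = 1.4e-05), so all 3 genes of the Peg10 cluster fell. Sfmbt2 rose from 57.9, 62.4 and 52.5 CPM to 178, 163 and 174 CPM (change 1.57, SE 0.07, adjusted p = 1.3e-07). Slc22a18 rose from 0.633, 0.832 and 1.08 CPM to 2.63, 2.57 and 1.95 CPM (change 1.49, SE 0.24, adjusted p = 7.3e-04). The other calls were H13 (0.78), Peg3 (0.76), Peg12, Tssc4, Trappc9, Igf2r, Phlda2, Slc38a4 and Snrpn upward, and Slc22a3 (-1.62), Zdbf2 (-1.15), Plagl1 (-1.01), Impact (-0.90), Grb10, Ube3a and Mest downward, those without a value being under 0.55 log2 units in size. The Mta2 KO libraries came from 1 primary line.

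In Mta3_del/del cells, 5 of 38 tested genes rose (13.2%) and 4 fell (10.5%), beside 8.32% and 7.84% of all genes. Peg10 stood at 73.5, 60.6 and 41.6 CPM against 11.2, 15.5 and 6.24 CPM in Mta3 flox/flox (change 2.35, SE 0.34, adjusted p = 0.015), the direction opposite to Mta2 KO. Sfmbt2 stood at 122, 123 and 41.3 CPM against 33.7, 28.0 and 16.6 CPM (change 1.82, SE 0.42, adjusted p = 0.028). Zdbf2 stood at 57.0, 53.7 and 46.7 CPM against 32.0, 34.1 and 28.9 CPM (change 0.67, SE 0.13, adjusted p = 0.021), and Impact rose by 0.54 (SE 0.09, adjusted p = 0.017).

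Inpp5f fell in Mta3_del/del from 15.8, 22.1 and 17.6 CPM to 10.3, 10.5 and 9.87 CPM (change -0.92, SE 0.17, adjusted p = 0.020). Igf2 stood at 1.32, 1.17 and 1.79 CPM against 1.56, 4.75 and 21.2 CPM (change -2.74, SE 0.78, adjusted p = 0.048), and the groups overlapped. Of 6 fibroblast feeder markers, 2 fell in the same comparison, Col3a1 (-6.09) and Col1a1 (-2.15), with a median of -1.67 over the list, while the summed level of the list was 1120 to 1562 CPM in Mta3_del/del and 858 to 1297 CPM in Mta3 flox/flox, and their part in the result was not tested. Mcts2 rose, and Igf2r and Magel2 fell. Few genes of any kind passed when a replicate was left out. Without replicate 1, 0 of the imprinted genes passed by edgeR (12 of 38 at an unadjusted p under 0.05), and over all 15595 genes 0 rose and 2 fell. Without replicate 3, 1 imprinted gene rose and 0 fell (11 of 38 at an unadjusted p under 0.05), and over all 16132 genes 1 rose and 1 fell. The change of Peg10 was 2.19 and 2.26 in these fits, and that of Igf2 was -3.16 and -1.42.

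In Mta1_del/del cells none of 37 tested genes passed by edgeR or DESeq2, beside 0.0% of all genes in either direction by edgeR. At an unadjusted p under 0.05 there was 1, Igf2 (log2 fold change -4.31), among 50 of all 14561 genes. With the replicate numbers as a block, which pair the libraries here, 0 passed and 1 was at an unadjusted p under 0.05, among 468 of all genes. Its values were 0.291, 0.437 and 0.368 CPM in Mta1_del/del and 0.048, 21 and 0.651 CPM in Mta1 flox/flox, where the library of replicate 2 stood apart. Peg10 stood at 212 CPM in that library and at 39.7 and 18.1 CPM in the other Mta1 flox/flox libraries, beside 67.4, 35.1 and 18.3 CPM in Mta1_del/del. Over the 9 libraries of the 3 parents, Peg10 ranged from 6.24 to 285 CPM and Igf2 from 0.048 to 21.2 CPM.

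**Figure D4:**
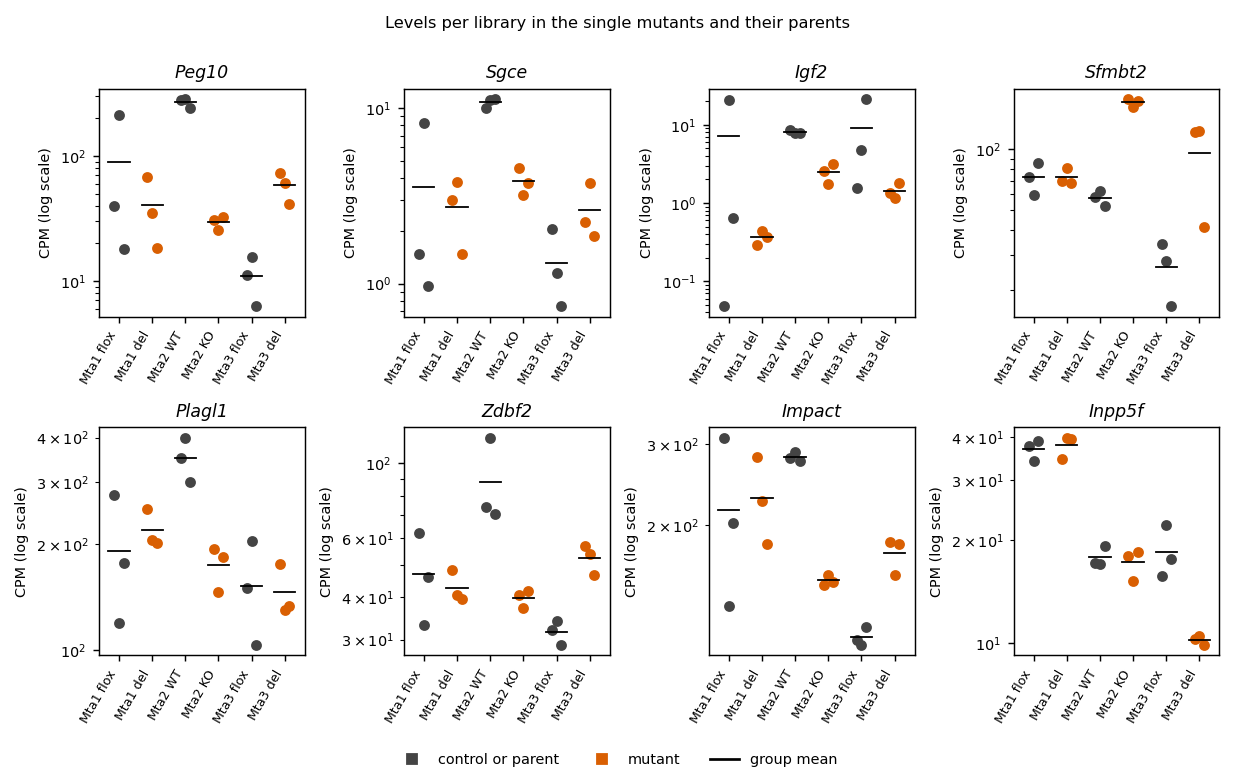
Level in CPM, on a log axis, of Peg10, Sgce, Igf2, Sfmbt2, Plagl1, Zdbf2, Impact and Inpp5f in each of the 3 libraries of every single mutant and of its parent, with bars at the group means. The Peg10 points of Mta2 KO (25.4 to 32.3) lie below those of wild type (243 to 285), those of Mta3_del/del lie above those of Mta3 flox/flox, and replicate 2 of Mta1 flox/flox lies apart for Peg10, Sgce and Igf2.

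Genes that act on imprints or lie beside them were described from lists. Of 14 genes that act in imprint maintenance, 3 rose and 3 fell in Mta123KO labelled 2iL, beside 27.1% and 24.2% of all genes. Labelled 48h 6 fell and the other 8 did not pass, while 26.6% of all genes rose and 23.4% fell. Labelled 2iL, Dppa3, which protects imprints in the early embryo, rose by 1.60 and Eed by 0.97 on the log2 scale. Uhrf1, which brings the maintenance DNA methyltransferase to replicated DNA, fell by 0.57. Labelled 48h, Uhrf1 fell by 1.28, Trim28, the corepressor recruited by ZFP57, by 0.62 and the maintenance methyltransferase Dnmt1 by 0.52. In Mta2 KO, 2 rose and 4 fell, beside 23.5% and 24.3% of all genes, with Dppa3 at 2.35, Setdb1 at -0.78 and Uhrf1 at -0.48. In Mta3_del/del Yy1 rose (0.49) and 0 fell, beside 8.32% and 7.84% of all genes. No DNA methylation was measured.

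A list of 34 neighbours held genes that lie beside those described here and are not among them. It was not limited to genes free of imprinting, so it is not a non-imprinted comparison. Labelled 2iL, 11 of 29 tested rose and 6 fell, beside 27.1% and 24.2% of all genes. Labelled 48h, 12 rose and 4 fell, beside 26.6% and 23.4% of all genes. Tnnt3 and Tnni2, muscle troponin genes next to the Igf2-H19 cluster, rose labelled 2iL by 7.62 and 4.56, and Th, which lies on the other side of Igf2, by 4.73. Labelled 48h, Tnnt3 rose by 5.27, Lsp1 by 4.35 and Ascl2, a trophoblast transcription factor, by 4.12. In Mta2 KO 6 of 25 rose and 9 fell, beside 23.5% and 24.3% of all genes, and in Mta3_del/del 2 of 26 rose and 3 fell, beside 8.32% and 7.84%.

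Markers of other cell types moved in the same comparison. All 9 trophoblast markers rose labelled 2iL, led by Gata3 (5.61), Krt7 (5.53) and Hand1 (5.03), and their summed level was 20.0 to 23.9 CPM in Control and 120.0 to 526 CPM in Mta123KO. Labelled 48h 5 of 8 tested rose and 1 fell, and the sum was 83.1 to 102 CPM in Control and 193 to 866 CPM in Mta123KO. None of the 9 was at 0 in any of these groups. Of 6 muscle markers, 2 of 4 tested rose labelled 2iL and 3 of 4 labelled 48h, and Actc1 rose by 7.24 and 9.49. Over all genes 27.1% rose labelled 2iL and 26.6% labelled 48h. The summed level of the muscle markers did not rise labelled 2iL. It was at most 17.4 CPM in Control and 8.04 to 16.4 CPM in Mta123KO, with overlapping ranges. Labelled 48h the muscle sum was 3.36 to 4.57 CPM in Control and 11.75 to 35.6 CPM in Mta123KO, with no overlap. The state of the ES cells moved as well, since 4 of 7 naive pluripotency genes rose and 3 of 4 formative genes fell labelled 2iL, while 5 of 7 naive genes fell labelled 48h. The formative sum labelled 2iL was 229 to 309 CPM in Mta123KO beside 752 to 1292 CPM in Control. Of 8 primitive endoderm markers, 3 of 7 tested rose and 2 fell labelled 2iL, with sums of 8.25 to 18.2 CPM in Control and 14.7 to 25.0 CPM in Mta123KO. Labelled 48h 2 of 5 tested rose and 1 fell, led by Dab2 (4.05), and the sums were 3.88 to 4.59 CPM in Control and 16.6 to 19.1 CPM in Mta123KO, with no overlap. Several of the imprinted genes, among them H19, Igf2, Peg10, Phlda2, Sfmbt2 and Ascl2 beside them, are abundant in placenta or muscle, and the part of these cell types and states in the results was not tested. In Mta2 KO 2 of 8 tested trophoblast markers rose and 5 fell, with sums of 152.5 to 162.5 CPM and of 112 to 119 CPM in wild type.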

How the data were processed

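Read counts per gene, deposited by the authors as whole numbers for each library, were made by trimming with Trim Galore 0.4.1, alignment to GRCm38/mm10 with TopHat 2.1.0 and counting with featureCounts 1.5.0 on Ensembl release 86, per the methods and the submitters' processing notes. Directional kits were used, but the strand setting of the counting is not given in the sources used here. The Control and Mta123KO libraries were paired-end and the single-mutant libraries single-end, and each set was normalised on its own. Gene symbols and coordinates came from GENCODE vM21 (GRCm38), and upstream sequences from RefSeq (GRCm38.p6), which were taken for 36 of the 45 genes. H19, Peg10, Sgce, Kcnq1, Cdkn1c, Peg13, Trappc9 and Kcnk9 had no window. Windows on chromosome 18 were left out for the imprinted genes, so none was taken for Impact, which lies there.

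Low counts were removed with filterByExpr, libraries were scaled by TMM, and groups were compared over all genes in edgeR 4.0.16 (quasi-likelihood F test, R 4.3.3) with Benjamini-Hochberg adjustment at 0.05 and no fold limit. CPM values are counts divided by the TMM-scaled library size. The main fits held the 2 groups compared, and DESeq2 1.42.0, other scalings and filters, a replicate block, lines as samples and left-out libraries were alternatives. In counts simulated on the means and totals of the 2iL comparison, 90.4% of genes changed by a log2 fold of 2 were recovered and 54.1% of those changed by 1. The simulated libraries were drawn independently, without lines, so these shares do not describe groups made of 2 lines. Same-numbered libraries deviated together between cultures (correlations of 0.272 to 0.337 in Control and 0.552 to 0.586 in Mta123KO) and in the Mta1 comparison (0.434 to 0.702), where the numbers were taken as pairs, but not in the other comparisons. Between the Mta123KO cultures, libraries of different numbers reached a correlation of 0.585, and 5 of 8 libraries matched best with their own number. A pairing of single libraries was thus not shown there. The genes and lists were chosen with earlier results of these data known. Values in every library were given for up to 15 genes per comparison of Mta123KO with Control, and up to 6 per single mutant, with the largest change among those that passed and reached 1 CPM, and for their cluster partners. The authors' own comparison results were not used. Culture labels followed the sample labels, to which the names of the deposited files run opposite.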

Additional observations from a re-analysis of the deposited data

Results flagged for a closer look

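For 13 imprinted genes the difference between Mta123KO and Control depended on the culture label, by the interaction term of edgeR's quasi-likelihood test. The difference was higher labelled 48h for Cdkn1c (4.47 log2 units), Magel2 (2.64), Nnat (1.80), Inpp5f (1.26), Usp29 (1.18), Mkrn3 (1.07), Grb10 (0.93), Ndn (0.77), Snrpn (0.71) and Gnas (0.69), and lower for Plagl1 (-3.24), Impact (-0.64) and Zrsr1 (-0.55). For Grb10 the higher value means a smaller fall labelled 48h, since it fell in both cultures. Usp29, Mkrn3 and Snrpn fell labelled 2iL and did not pass labelled 48h. Adjusted p ran from 1.9e-05 for Nnat to 0.039 for Snrpn, and with the lines as samples only Nnat passed.

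Of 92 groups of 4 libraries tested for a single library far from the others, 3 were past Dixon's 95% critical value for 4 samples (chance marks about 1 in 20). These were Grb10 in Control labelled 48h (gap over range 0.902, the library at 104 CPM beside 124 to 126), Nnat in Control labelled 48h (0.859, the library at 3.16 CPM beside 2.52 to 2.61) and Inpp5f in Mta123KO labelled 2iL (0.850, the library at 21.9 CPM beside 24.8 to 25.3). None of these libraries lay in the range of the other genotype for Grb10 or Nnat.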

How the results depend on the processing

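Size factors of DESeq2, no filter on low counts and DESeq2 itself left every count of imprinted genes within 1.5 times its value. With the libraries of a line summed, 10 rose and 2 fell in Mta123KO labelled 2iL (20 and 6 by library), 12 and 1 labelled 48h (21 and 2), 0 and 0 between the Mta123KO cultures (4 and 8) and 1 and 0 in the interaction (10 and 3), the last chosen after seeing the data. Between the Mta123KO cultures 0 of all 24445 genes passed in that fit. With an absolute log2 fold change above 1, 12 rose and 2 fell labelled 2iL, 1 fell labelled 48h, 2 rose and 7 fell in Mta2 KO (11 and 11), 2 and 2 in Mta3_del/del (5 and 4), 2 rose between the Control cultures (9), 2 and 3 rose and fell between the Mta123KO cultures, and 6 and 1 passed in the interaction. In 1 fit of all single-mutant libraries, 3 rose and 5 fell in Mta2 KO and 3 and 2 in Mta3_del/del. Without line 1 of Mta123KO, 10 fell labelled 2iL and 5 labelled 48h. The cause of these shifts was not tested, apart from the fewer samples of the summed lines and the stricter fold limit.

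Without 1 replicate number at a time, 15 to 19 rose and 5 fell labelled 2iL, 17 to 23 rose and 1 to 2 fell labelled 48h, 0 to 5 rose and 0 to 5 fell in Mta3_del/del, and 2 rose and 3 to 5 fell between the Mta123KO cultures. The replicate block, where numbers were taken to pair the libraries, gave 8 that rose and 12 that fell between the Mta123KO cultures, 12 and 24 between the Control cultures, and 0 and 0 in Mta1_del/del. Where they share only a number it gave 17 and 6 labelled 2iL, 21 and 2 labelled 48h, 10 and 11 in Mta2 KO and 4 and 4 in Mta3_del/del. Spike-in scaling moved the median of all genes by -0.18 labelled 48h, 0.18 between the Control cultures and -0.22 in the interaction, and gave 2 that rose and 5 that fell between the Mta123KO cultures and 3 that rose in the interaction. Of the values of single genes under the alternatives, 1363 kept direction and call, 306 kept direction and lost the call, and 0 reversed. Genes under about 1 CPM, among them Airn, Magel2, Zim1 and Rasgrf1, are limited by counts.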

Other observations

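Gnas stood at 5.16 to 9.48 CPM in the 18 single-mutant libraries and at 79.6 to 206 CPM in the Control and Mta123KO libraries. The sets differ in read layout and were normalised separately, so the difference is given without a test.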
